A study of Homo sapiens with 24 samples.

Results

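The hypoxia and glycolysis genes are a set of 36 genes, named from general knowledge of both pathways and matched by gene symbol to the 57820 genes that the RNA-seq libraries counted in 2 HNSCC lines, Cal33 and SAS. They were matched by name alone, with earlier results of these data known. They fall into 15 glycolytic enzymes, 6 genes of glucose and lactate transport and flux, 14 other targets of hypoxia-inducible factors (HIF), and HIF1A itself. All 36 were present and passed the filter on low counts in both lines.

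Cal33 and SAS are established cell lines of head and neck squamous cell carcinoma, here labelled as derived from tongue and wild type. Each line was measured in 3 replicates of 4 groups: GSK-J1 with 4 Gy, GSK-J1, 4 Gy, and sham. GSK-J1 inhibits the histone H3K27 demethylases JMJD3 and UTX and was given at 4.5 µM, X-rays were given as a single dose of 4 Gy, and total RNA was taken after 24 h of treatment. Sham libraries carry neither agent. The labels and methods do not state that the replicates were separate cultures, so p-values measure the spread between these samples, which may be technical. Fewer cells and less RNA per cell cannot be told apart in such bulk libraries.

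Under normal oxygen, EGLN prolyl hydroxylases mark the HIF alpha subunits, VHL binds the marked protein, and it is degraded. When oxygen is short, HIF1A protein persists, pairs with ARNT and raises the transcription of genes that carry glucose into the cell, turn it into lactate, export acid, build vessels and remove mitochondria. HIF1A is governed largely at the protein level, so its message is no measure of pathway activity, and squamous carcinomas are known both for hypoxic areas and for high glucose use in the presence of oxygen.

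The libraries held 54200036 to 96848227 counts on the gene strand, with a median of 76418470.5, and the 36 genes took 1.42 to 2.20% of the counts in Cal33 and 0.978 to 1.31% in SAS. CPM are counts scaled to a common library size, per 1e+06, by TMM. Only the marker sums and the levels of Cal33 transcripts in this paragraph were scaled by total counts, without TMM. The summed level of 11 squamous markers was 7707 to 11640 CPM in Cal33 and 3421 to 4736 CPM in SAS, while 8 markers of other cell types summed to 4.39 to 49.2 CPM. SAS GSK-J1 with 4 Gy replicate 1 and SAS GSK-J1 replicate 1 held transcripts of 10 genes that mark Cal33, amounting to 0.729% and 1.43% of the Cal33 level, while the remaining 10 libraries of SAS reached no more than 0.0139%. This bears on ALDOC, which is far higher in Cal33, and comparisons with those 2 libraries are given with and without them where the call changes. Replicates with the same number deviated together in SAS and, in Cal33, among the 3 groups other than sham. A model that blocks on the replicate number is therefore given beside the results whose count of calls it changes by more than 1.5 times.

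In sham cells the most abundant of the 36 transcripts per length were glycolytic enzymes. GAPDH, which oxidizes glyceraldehyde 3-phosphate, led in both lines at 1589 ± 249 CPM per kb of exon in Cal33 and 1217 ± 134 in SAS (SD, n = 3 each). ENO1, the enolase, followed at 602 ± 38.0 CPM per kb in Cal33 and 435 ± 54.7 in SAS, and its neighbours in the order did not overlap with it. ALDOA, the main aldolase, was at 399 ± 42.6 CPM per kb in Cal33 and 145 ± 30.5 in SAS, TPI1, the triosephosphate isomerase, at 251 ± 35.2 and 193 ± 22.7 in the same order of lines, and PKM, the pyruvate kinase, at 224 ± 34.2 in Cal33 and 152 ± 27.5 in SAS. TPI1 and PKM overlapped in both lines, as did ALDOA and PKM in SAS. In both lines these enzymes stood far above the classic hypoxia markers. CA9, a membrane carbonic anhydrase that is used as a hypoxia marker, was at 2.04 ± 0.139 CPM per kb in Cal33 and 1.62 ± 1.33 in SAS, and ANKRD37, an ankyrin repeat gene and HIF target, at 0.134 ± 0.0562 and 0.506 ± 0.114. HIF1A was at 41.4 ± 6.16 CPM per kb in Cal33 and 44.3 ± 3.30 in SAS. In Cal33, the members ranked between PKM and PDK1 lay at 89.4 (LDHA) to 1.12 (PFKFB4) CPM per kb. The lowest were PDK1, EGLN3, ANKRD37, LOX and SLC2A3 in Cal33, and EGLN3, ANKRD37, ALDOC and CA12 were the lowest in SAS.

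The untreated lines differed in 24 of these 36 genes, where they differed in 54.5% of all genes tested. Of the 36 members, 13 were higher and 11 lower in Cal33 sham than in SAS sham cells (adjusted p under 0.05, edgeR's quasi-likelihood test on 24 libraries), against 27.2% of all 24597 genes tested that were higher and 27.2% that were lower. ALDOC, an aldolase of brain, had 25.6, 19.0 and 26.9 CPM per kb in Cal33 and 0.328, 0.360 and 0.349 in SAS, a log2 difference of 6.11 ± 0.203 (SE, adjusted p = 5.3e-16). CA12, a second membrane carbonic anhydrase, was also higher in Cal33, by 3.70 ± 0.371 on the log2 scale. So were ALDOA by 1.46 ± 0.175, ADM, the vasodilator adrenomedullin, by 1.15 ± 0.161, and PFKFB3, which makes the activator of phosphofructokinase, by 1.13 ± 0.192. Lower in Cal33 were LOX, which crosslinks collagen, by a log2 difference of -3.65 ± 0.324, and BNIP3, a mitophagy receptor, by -2.24 ± 0.252. SLC16A3, the lactate exporter MCT4, differed by -1.91 ± 0.355 and PDK1, the kinase that inhibits pyruvate dehydrogenase, by -1.59 ± 0.180. SLC2A3, the glucose transporter GLUT3, had 0, 2 and 6 counts in the Cal33 sham libraries and at least 561 in every SAS library, and its reads can also come from the near-identical SLC2A14. SLC2A1, the glucose transporter GLUT1, differed by only 0.02 ± 0.155 (adjusted p = 0.94), and HIF1A by -0.10 ± 0.134 (adjusted p = 0.55). Each of these lines is 1 culture line, and what sets them apart was not tested.

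**Figure D1:**
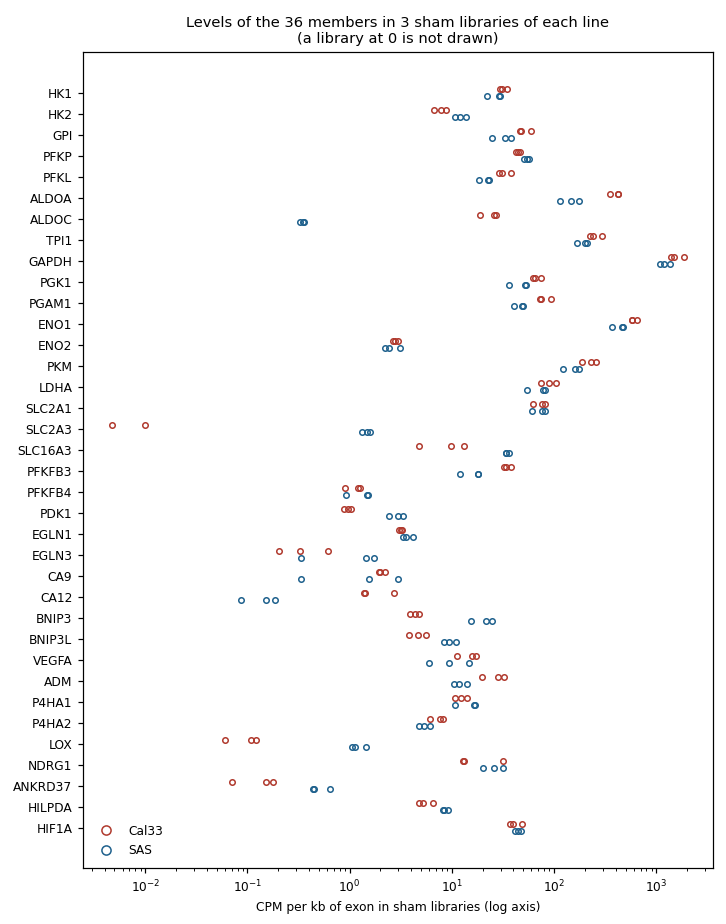
Level of each of the 36 genes in sham cells in CPM per kb of exon (log axis), 1 point per library, Cal33 in red above SAS in blue. GAPDH and ENO1 lead in both lines, while ALDOC averages 23.8 CPM per kb in Cal33 and 0.346 in SAS.

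The first question was what 4 Gy did to these genes in Cal33. At 24 h, irradiated Cal33 cells had more message for the glycolytic enzyme HK2 and for several HIF targets. PGK1, PGAM1, ENO1, PKM and LDHA did not pass the test without a block. Against sham, 7 of the 36 members rose and 1 fell, where 3.47% of all 24351 genes tested rose and 2.81% fell. The risers were the glycolytic enzymes HK2, PFKP and ENO2 and the HIF targets CA9, BNIP3, VEGFA and ADM, and the member that fell was ALDOC. All 6 members of glucose and lactate transport and flux lay on the higher side and none passed the test. The groups of 14 members did not overlap, where those of 25.8% of all genes did not.

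HK2 encodes hexokinase 2, which traps glucose in the cell as glucose 6-phosphate and is the inducible hexokinase of many tumours. It had 134, 111 and 142 CPM in Cal33 cells given 4 Gy, against 41.8, 50.9 and 55.1 CPM in sham cells. All irradiated libraries lay far above all sham libraries, and the log2 fold change was 1.39 ± 0.167 (SE, adjusted p = 0.0017). HK1, the constitutive hexokinase, moved by -0.22 ± 0.0944 (adjusted p = 0.19). In the annotation of the count files (hs37d5), HK2 (ENSG00000159399) at chr2:75061108-75120486 lies on the plus strand, and values are sums over all of its exons. HK2 stayed called with each library left out in turn, at log2 fold changes of 1.29 to 1.49.

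Among the HIF targets, VEGFA, the main growth factor of blood vessels, had 612, 442 and 497 CPM after 4 Gy, against 260, 174 and 237 CPM in sham cells. Its log2 fold change was 1.21 ± 0.196 (adjusted p = 0.0058), with no overlap of the groups. BNIP3 had 19.1, 29.0 and 43.0 CPM after 4 Gy, against 9.51, 10.7 and 8.59 CPM in sham cells (1.66 ± 0.285, adjusted p = 0.0072). Irradiated libraries thus spread widely while the sham libraries lay close together, and replicate 1 was the lowest of the irradiated ones. CA9 was also lowest in replicate 1 of the irradiated libraries, with 6.33, 18.1 and 17.2 CPM after 4 Gy, against 3.37, 3.56 and 3.85 CPM in sham cells, and the largest log2 fold change of the called members at 1.95 ± 0.391 (adjusted p = 0.014). ADM had 147, 121 and 128 CPM after 4 Gy, against 91.8, 82.1 and 55.5 CPM in sham cells (0.79 ± 0.180, adjusted p = 0.025).

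Smaller rises were seen in PFKP, the platelet form of phosphofructokinase, with 317, 289 and 319.7 CPM after 4 Gy, against 224, 220.3 and 234.5 CPM in sham cells (0.45 ± 0.109, adjusted p = 0.033). ENO2, the neuronal enolase, had 18.6, 22.0 and 17.7 CPM after 4 Gy, against 12.5, 13.7 and 11.8 CPM in sham cells (0.62 ± 0.133, adjusted p = 0.020). The other major isoforms of the same steps, PFKL and ENO1, gave -0.24 ± 0.112 (adjusted p = 0.23) and 0.08 ± 0.142 (adjusted p = 0.80). ALDOC went the other way, with 43.1, 44.3 and 41.4 CPM after 4 Gy, against 78.2, 59.4 and 82.3 CPM in sham cells (-0.77 ± 0.131, adjusted p = 0.0070). The 3 irradiated libraries of ALDOC were nearly equal, and its abundant relative ALDOA gave 0.07 ± 0.186 (adjusted p = 0.86). LDHA, the muscle form of lactate dehydrogenase, had 696, 1139 and 1311 CPM after 4 Gy, against 485, 694 and 575 CPM in sham cells, so that its groups did not overlap, yet it missed the threshold (0.84 ± 0.237, adjusted p = 0.053). LOX (1.32 ± 0.384, adjusted p = 0.060) and P4HA1, a collagen prolyl hydroxylase (0.53 ± 0.163, adjusted p = 0.073), missed it as well. The replicate block, which the Cal33 sham libraries do not follow, called LDHA over 12 libraries (0.81, adjusted p = 0.0079). It also did so in the 6 compared (0.81, adjusted p = 0.018). The LDHA response was not called as different between the lines in the fit of 24 libraries (0.33, adjusted p = 0.80).

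Leaving out each of the 6 libraries in turn kept the calls of HK2, VEGFA, BNIP3 and ALDOC in all 6 fits. CA9 kept its call in 4 fits (highest adjusted p = 0.068, without sham replicate 1), ENO2 in 3 (0.063, without 4 Gy replicate 2), ADM in 3 (0.077, without 4 Gy replicate 1) and PFKP in 1 (0.12, without 4 Gy replicate 3).

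**Figure D2:**
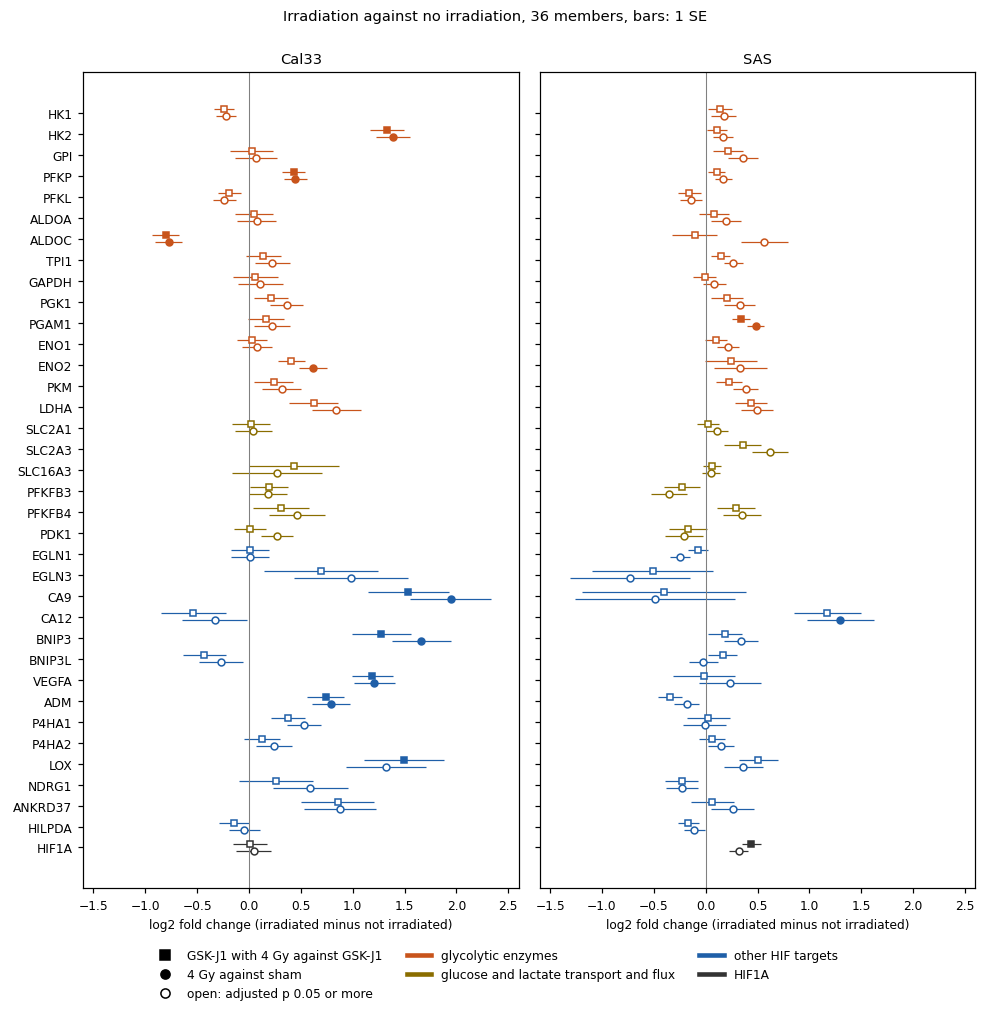
Log2 fold change of each gene for irradiation without GSK-J1 (circles, 4 Gy against sham) and with it (squares, GSK-J1 with 4 Gy against GSK-J1), bars 1 SE, filled where the adjusted p was under 0.05, Cal33 left and SAS right. SLC2A3 is not drawn in Cal33, where it had at most 19 counts. HK2, VEGFA, BNIP3 and CA9 are filled on the right in Cal33 with and without GSK-J1, while PGAM1 is filled in SAS.

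HK2, PFKP, VEGFA, BNIP3, CA9 and ADM also rose, and ALDOC also fell, when the cells had received GSK-J1. Of the 36 members, 7 rose and 1 fell in Cal33 given GSK-J1 with 4 Gy against GSK-J1 alone, where 3.04% of all genes rose and 2.07% fell. HK2 had 130.1, 93.8 and 129 CPM with the combination, against 55.4, 41.4 and 43.4 CPM under GSK-J1 (1.33 ± 0.167, adjusted p = 0.0019). VEGFA gave 598, 377 and 481 CPM with the combination, against 229.5, 230.1 and 178 CPM under GSK-J1 (1.19 ± 0.196, adjusted p = 0.0066), and ALDOC 42.4, 43.7 and 41.5 CPM against 84.0, 73.0 and 65.8 CPM under GSK-J1 (-0.80 ± 0.131, adjusted p = 0.0061). These 3 genes kept their calls with each library left out. The groups of each of them were fully apart, as were those of 14 members in all and of 26.1% of all genes.

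BNIP3 rose by 1.28 ± 0.283 (adjusted p = 0.024), CA9 by 1.54 ± 0.390 (adjusted p = 0.041), ADM by 0.74 ± 0.180 (adjusted p = 0.035), LOX by 1.50 ± 0.385 (adjusted p = 0.042) and PFKP by 0.43 ± 0.109 (adjusted p = 0.041). With each library left out in turn, BNIP3 kept its call in 2 of 6 fits, CA9, ADM and PFKP in 1 each and LOX in 0 (highest adjusted p = 0.097 for BNIP3, without GSK-J1 with 4 Gy replicate 3, and 0.16 for CA9, without GSK-J1 replicate 2). ENO2 gave 0.41 ± 0.133 and was not called here (adjusted p = 0.095). With the replicate block in these 6 libraries, 13 members rose and 2 fell, where 10% of all genes rose and 8.37% fell. In the block over the 12 Cal33 libraries, which include the sham libraries that do not pair by number, 8 rose and 1 fell, where 5.04% of all genes rose and 3.63% fell. The additional risers in the 6 libraries were ENO2, LDHA, SLC2A3, SLC16A3, EGLN3, a HIF-induced prolyl hydroxylase, and P4HA1. SLC2A3 rests on 11, 1 and 5 counts with the combination, against 1, 0 and 0 under GSK-J1. BNIP3L, the mitophagy receptor related to BNIP3, was the additional member that fell (-0.40, adjusted p = 0.028). Of these 7 genes, only LDHA was called in the block over 12 libraries (0.58, adjusted p = 0.036). GSK-J1 with 4 Gy and 4 Gy alone were set against different libraries, GSK-J1 and sham, so the comparisons share none. They are still not independent. Both come from 1 fit, and same-numbered libraries of the combination and of 4 Gy deviated together (r = 0.83, 0.64 and 0.63).

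HIF binds a short core in its target genes, of which only the form ACGTG was searched. Other forms were neither counted nor marked, and the core below means ACGTG or its reverse complement alone. The proximal promoters of 4 of the genes called in Cal33 are shown, chosen because they hold it. The windows span 250 bases before to 50 bases after a RefSeq transcription start (GRCh38.p14), written 5′ to 3′ on the strand of the gene, with each ACGTG or its reverse complement CACGT in capitals. Both overlap in CACGTG, which is also the core bound by other basic helix-loop-helix factors. For HK2, the window with more matches of its 2 is given.
HK2, chr2:74834920-74835219, plus strand: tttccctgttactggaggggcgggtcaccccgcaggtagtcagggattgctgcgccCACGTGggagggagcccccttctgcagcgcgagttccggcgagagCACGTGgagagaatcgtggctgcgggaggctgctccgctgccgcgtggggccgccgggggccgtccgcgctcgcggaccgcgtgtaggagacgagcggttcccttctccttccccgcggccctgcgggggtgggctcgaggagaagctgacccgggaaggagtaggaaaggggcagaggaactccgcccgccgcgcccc
BNIP3, chr10:131981874-131982173, minus strand: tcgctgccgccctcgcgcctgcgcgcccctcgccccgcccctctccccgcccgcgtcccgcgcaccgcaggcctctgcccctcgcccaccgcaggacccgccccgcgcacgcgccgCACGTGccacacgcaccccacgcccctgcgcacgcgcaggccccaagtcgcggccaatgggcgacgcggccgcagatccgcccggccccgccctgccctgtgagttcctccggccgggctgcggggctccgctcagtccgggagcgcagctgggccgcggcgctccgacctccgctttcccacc
CA9, chr9:35673678-35673977, plus strand: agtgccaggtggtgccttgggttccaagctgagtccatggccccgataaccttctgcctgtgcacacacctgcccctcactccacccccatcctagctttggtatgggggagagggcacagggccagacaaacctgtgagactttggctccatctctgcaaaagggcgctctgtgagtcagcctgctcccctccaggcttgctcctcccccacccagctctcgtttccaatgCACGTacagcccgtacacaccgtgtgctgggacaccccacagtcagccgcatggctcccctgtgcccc
ALDOC, chr17:28576846-28577145, minus strand: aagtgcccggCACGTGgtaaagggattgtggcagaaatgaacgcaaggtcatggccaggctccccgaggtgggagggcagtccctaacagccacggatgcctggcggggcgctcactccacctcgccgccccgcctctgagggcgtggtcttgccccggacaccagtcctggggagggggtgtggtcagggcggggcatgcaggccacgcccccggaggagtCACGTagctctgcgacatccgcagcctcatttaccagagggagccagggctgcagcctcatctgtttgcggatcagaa
HK2 and BNIP3, which rose, carry CACGTG, at 194 and 149 bases before the start in HK2 and at 134 bases in BNIP3. The other HK2 window carries only CACGT, at 229 and 48 bases before its own start. CA9 carries a single CACGT that begins 18 bases before its start. ALDOC, which fell, carries CACGTG at 240 bases before its start and CACGT at 28 bases. Of the 31 members with a window in this table, 19 had the core in at least 1 window (61.3%), against 24.9% of all 27305 genes with a window. By window, 44.4% of 54 member windows and 21.4% of all 35116 windows held it. It was found in 10 of 15 glycolytic enzymes and 6 of 10 other HIF targets with a window. Of the other called genes with a window, LOX held the core in at least 1 window, PFKP and ENO2 held 1 match at most in a window, and ADM held 0. The members were named as known genes of the HIF and glycolysis pathways, so a higher share of the HIF core is no independent result. A match of 5 letters is a description of the sequence and was not tested for binding. The genes NDRG1, SLC2A3, VEGFA, BNIP3L and HILPDA were not matched in the table.

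In SAS, 4 Gy left HK2 and VEGFA within their spread. Against sham, 2 members rose and 0 fell, where 3.63% of all 23416 genes rose and 3.45% fell. PGAM1, the phosphoglycerate mutase of most tissues, had 163, 159.6 and 149.7 CPM after 4 Gy, against 119, 121 and 98.9 CPM in sham cells (0.48 ± 0.0864, adjusted p = 0.0068), and kept its call with each library left out. CA12 had 2.41, 2.67 and 2.09 CPM after 4 Gy, against 1.28, 1.06 and 0.595 CPM in sham cells (1.30 ± 0.326, adjusted p = 0.032), and kept its call in 1 of 6 such fits (highest adjusted p = 0.097, without 4 Gy replicate 2). CA12 is thus a low transcript whose groups did not overlap, and in Cal33, where it is higher, it gave -0.33 ± 0.310 (adjusted p = 0.57). For 4 Gy against sham in SAS, the groups of 12 members did not overlap, where those of 26.9% of all genes did not.

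HK2 had 78.3, 79.8 and 78.4 CPM in SAS cells given 4 Gy, against 69.3, 79.5 and 62.0 CPM in sham cells (0.17 ± 0.0972, adjusted p = 0.33). VEGFA had 161, 149 and 170.2 CPM after 4 Gy, against 128, 81.1 and 199.5 CPM in sham cells (0.23 ± 0.301, adjusted p = 0.70), and its sham libraries spread over a wider range than its irradiated ones. CA9 had 3.10, 1.44 and 0.887 CPM after 4 Gy, against 2.45, 4.71 and 0.532 CPM in sham cells (-0.49 ± 0.771, adjusted p = 0.76). In every SAS group, replicate 3 had the lowest CA9 of the 3 libraries.

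The window of PGAM1, the member that rose with the smallest p in SAS, is shown for comparison with those above and held 0 matches of the core.
PGAM1, chr10:97427568-97427867, plus strand: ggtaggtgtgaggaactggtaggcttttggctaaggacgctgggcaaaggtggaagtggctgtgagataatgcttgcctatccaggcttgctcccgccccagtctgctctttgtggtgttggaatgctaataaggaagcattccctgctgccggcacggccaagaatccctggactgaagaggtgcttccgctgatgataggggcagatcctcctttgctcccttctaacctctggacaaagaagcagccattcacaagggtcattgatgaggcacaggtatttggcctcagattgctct
The absence says only that these letters are not in this window.

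The SAS libraries differ by replicate number, and the fit with the number as a block over the 12 libraries called more members. After 4 Gy, 12 members rose and 3 fell in it, where 11.3% of all genes rose and 13.2% fell. Of the glycolytic enzymes, 6 of 15 rose: PGAM1 (0.48), LDHA (0.52), PKM (0.40), GPI, the phosphoglucose isomerase (0.38), PGK1, the first ATP-making kinase of the path (0.34), and TPI1 (0.27). The other risers were CA12 (1.35), SLC2A3 (0.60), LOX (0.37), PFKFB4, a relative of PFKFB3 (0.37), BNIP3 (0.35) and HIF1A (0.32). PFKFB3 (-0.34), PDK1 (-0.22) and EGLN1, the main oxygen-sensing hydroxylase (-0.24), fell. LDHA had 622, 608 and 545 CPM after 4 Gy, against 454, 480.1 and 323 CPM in sham cells (blocked adjusted p = 5.1e-04). HIF1A had 247, 276.5 and 284 CPM after 4 Gy, against 199.9, 215 and 233.5 CPM in sham cells (0.32 ± 0.0895, adjusted p = 0.0515 without the block and 0.0014 with it). Both were higher in each of the 3 pairs. Without the block, SLC2A3 (0.62 ± 0.176, adjusted p = 0.052) and LDHA (0.50 ± 0.155, adjusted p = 0.071) were also near the threshold.

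For GSK-J1 with 4 Gy against GSK-J1 in SAS, 2 members rose and 0 fell, where 2.43% of all genes rose and 1.99% fell. HIF1A had 280, 318.5 and 305 CPM with the combination, against 214, 212 and 240.4 CPM under GSK-J1 (0.44 ± 0.0896, adjusted p = 0.017). PGAM1 had 149, 145 and 138 CPM with the combination, against 114, 119.9 and 107 CPM under GSK-J1 (0.34 ± 0.0863, adjusted p = 0.043). Both groups were apart for both genes, as they were for 9 members in all and for 26% of all genes. But without SAS GSK-J1 with 4 Gy replicate 1 and SAS GSK-J1 replicate 1, which hold Cal33 transcripts, 0 members were called. With each single library left out, HIF1A kept its call in 2 of 6 fits and PGAM1 in 0. CA12 (1.17 ± 0.322, adjusted p = 0.058), ADM (-0.35 ± 0.117, adjusted p = 0.11) and LDHA (0.43 ± 0.155, adjusted p = 0.13) followed. With the block over 12 libraries, 6 rose and 2 fell, where 10.4% of all genes rose and 11% fell. The risers were HIF1A (0.44), PGAM1 (0.34), LDHA (0.45), SLC2A3 (0.36), CA12 (1.20) and LOX (0.53), and ADM (-0.35) and PFKFB3 (-0.22) fell. With the block and without those 2 libraries, a fit added after the data were seen, 5 rose and 0 fell.

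SLC2A1, PGK1, PDK1, EGLN3 and ANKRD37 were followed library by library as well. SLC2A1 had 264, 331 and 401 CPM in Cal33 under GSK-J1 with 4 Gy, 284, 370 and 332 under GSK-J1, 264, 336 and 399.5 after 4 Gy and 359, 340.3 and 271 in sham cells. SLC2A1 had 277, 261 and 262 CPM in SAS under GSK-J1 with 4 Gy, 278, 278 and 231 under GSK-J1, 324, 313 and 293 after 4 Gy and 299.8, 323 and 240.3 in sham cells. In Cal33 its groups overlapped in every comparison, and in SAS the highest combination library lay below the lowest 4 Gy library. PGK1 had 372, 515 and 519.8 CPM in Cal33 under GSK-J1 with 4 Gy, 393, 392 and 431 under GSK-J1, 404, 570 and 587 after 4 Gy and 369, 454 and 390.4 in sham cells. PGK1 had 314, 300.1 and 273 CPM in SAS under GSK-J1 with 4 Gy, 284, 280.2 and 204 under GSK-J1, 345, 328 and 292 after 4 Gy and 283, 288 and 198 in sham cells. In SAS the 4 Gy libraries lay above all sham libraries, with replicate 3 the lowest number in every group. PDK1 had 12.2, 15.5 and 16.1 CPM in Cal33 under GSK-J1 with 4 Gy, 13.0, 16.2 and 14.4 under GSK-J1, 15.4, 19.3 and 20.9 after 4 Gy and 14.0, 16.7 and 15.3 in sham cells. PDK1 had 39.5, 36.1 and 29.3 CPM in SAS under GSK-J1 with 4 Gy, 48.7, 40.0 and 29.5 under GSK-J1, 40.9, 38.5 and 28.5 after 4 Gy and 47.2, 42.5 and 35.1 in sham cells. PDK1 was higher in SAS than in Cal33 in every library. EGLN3 had 1.70, 5.18 and 4.76 CPM in Cal33 under GSK-J1 with 4 Gy, 1.25, 4.26 and 1.71 under GSK-J1, 2.93, 7.80 and 6.59 after 4 Gy and 4.67, 2.54 and 1.55 in sham cells. In the Cal33 groups other than sham, replicate 1 was the lowest, and its groups overlapped in every comparison. ANKRD37 had 0.479, 0.529 and 0.444 CPM in Cal33 under GSK-J1 with 4 Gy, 0.207, 0.312 and 0.285 under GSK-J1, 0.514, 0.650 and 0.825 after 4 Gy and 0.483, 0.416 and 0.192 in sham cells. ANKRD37 had 1.51, 1.21 and 1.41 CPM in SAS under GSK-J1 with 4 Gy, 1.51, 1.18 and 1.25 under GSK-J1, 1.42, 1.80 and 1.23 after 4 Gy and 1.06, 1.56 and 1.10 in sham cells. In Cal33 it lay higher in all irradiated libraries than in their own unirradiated group, at log2 fold changes of 0.88 for 4 Gy against sham (adjusted p = 0.15) and 0.86 for the combination against GSK-J1 (adjusted p = 0.18).

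**Figure D3:**
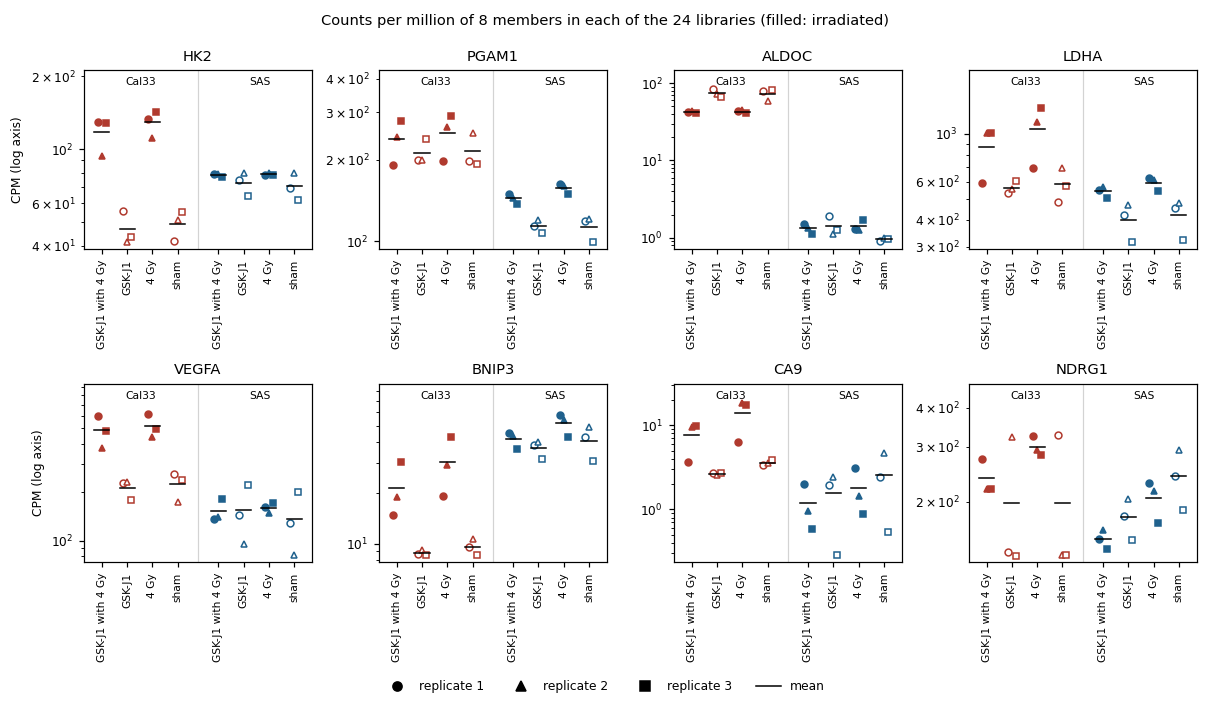
CPM (log axis) of 8 genes in each of the 24 libraries, filled where irradiated, with markers for the replicate number and a bar at the group mean. In Cal33, HK2 lies at 93.8 to 142 CPM in the 6 irradiated libraries and at 41.4 to 55.4 CPM in the other 6, and NDRG1 is high in 1 library each of GSK-J1 and sham.

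The responses of the lines to irradiation were compared directly in 1 fit of 24 libraries. For 4 Gy against sham, HK2 and ALDOC differed between Cal33 and SAS, 2 of 36 members where 0.427% of all genes were called. HK2 rose more in Cal33, by 1.21 ± 0.202 on the log2 scale (adjusted p = 0.012). ALDOC went down in Cal33 and lay higher in SAS at 1.31, 1.25 and 1.69 CPM after 4 Gy, against 0.907, 0.997 and 0.971 CPM in sham cells, a difference of responses of -1.36 ± 0.248 (adjusted p = 0.017). Those 6 SAS libraries are not the ones with Cal33 transcripts. For the combination against GSK-J1, HK2 (1.20 ± 0.202, adjusted p = 0.012) and ADM (1.06 ± 0.226, adjusted p = 0.049) differed, where 0.232% of all genes were called. With the replicate block within each line, where the Cal33 sham libraries do not pair by number, 6 members were called for 4 Gy against sham, where 2.57% of all genes were. ADM (0.97, adjusted p = 0.0078), BNIP3 (1.23, adjusted p = 0.015), PDK1 (0.46, adjusted p = 0.047) and CA12 (-1.68, adjusted p = 0.027) joined HK2 and ALDOC. For the combination against GSK-J1, 5 were called in that fit, where 2.55% of all genes were, with BNIP3 (1.00, adjusted p = 0.047), VEGFA (1.08, adjusted p = 0.025) and CA12 (-1.78, adjusted p = 0.019) beside HK2 and ADM. Without the block, VEGFA, BNIP3 and CA9, although called in Cal33 and not in SAS, did not pass this test. For 4 Gy against sham, the adjusted p of the difference was 0.38 for VEGFA (0.96), 0.10 for BNIP3 (1.31) and 0.34 for CA9 (2.42). The next smallest p-values there belonged to ADM (0.96, adjusted p = 0.063) and CA12 (-1.65, adjusted p = 0.16). For the combination against GSK-J1 they belonged to CA12 (-1.73, adjusted p = 0.14), BNIP3 (1.07, adjusted p = 0.22) and VEGFA (1.18, adjusted p = 0.24).

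Glycolytic enzymes and other HIF targets were set side by side. In Cal33 given 4 Gy, the median log2 fold change against sham was 0.22 for the 15 glycolytic enzymes and 0.69 for the 14 other HIF targets, beside 0.01 for all genes. Without sham replicate 1, the median of the other HIF targets was 1.05. The glycolytic median was 0.11 without 4 Gy replicate 3, 0.36 without 4 Gy replicate 1 and 0.36 without sham replicate 2. In SAS, the order was turned: 0.27 for the glycolytic enzymes, of which 14 of 15 lay above 0, and -0.02 for the other HIF targets, of which 6 of 14 did, beside -0.02 for all genes. For the combination against GSK-J1, the medians were 0.14 for glycolytic enzymes and 0.54 for other HIF targets in Cal33, and 0.14 and 0.01 for the same classes in SAS. Without Cal33 GSK-J1 replicate 2, the Cal33 median of the other HIF targets was 0.81, and leaving out 1 library at a time put the glycolytic median of Cal33 at 0.02 (without GSK-J1 with 4 Gy replicate 3) to 0.27 (without GSK-J1 with 4 Gy replicate 1). In SAS the glycolytic median was then 0.17 to 0.35 for 4 Gy against sham and 0.08 to 0.19 for the combination against GSK-J1. Lists of genes beyond the members, described below, had other medians for 4 Gy against sham. In Cal33 these were 0.30 for 30 further HIF targets and -0.14 for 23 further glycolysis and pyruvate genes. In SAS they were 0.06 for 29 and 0.11 for 22 genes of the same lists. All these medians describe the genes listed, and the difference between the classes was not tested.

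Averaged over the genes of a class, the other HIF targets of the Cal33 libraries lay at 0.28 to 0.49 relative to their mean over 12 libraries after 4 Gy, against -0.51 to -0.01 in sham cells, on the log2 scale. The glycolytic enzymes of the same libraries overlapped, at -0.08 to 0.28 after 4 Gy and -0.15 to 0.01 in sham cells. Cal33 4 Gy replicate 1 was the low library for both classes. In SAS the glycolytic enzymes lay at 0.10 to 0.26 after 4 Gy and at -0.33 to 0.05 in sham cells, without overlap, while the other HIF targets lay at -0.09 to 0.31 after 4 Gy and -0.30 to 0.24 in sham cells.

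**Figure D4:**
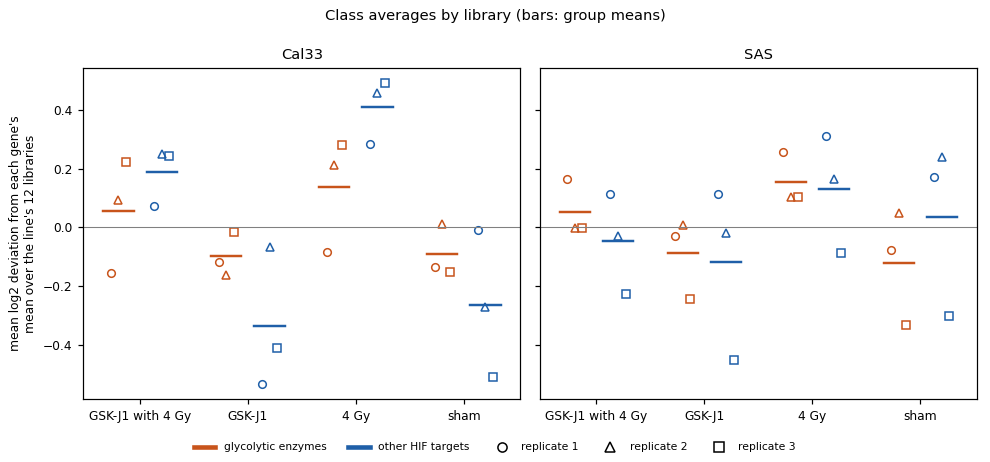
Mean log2 deviation of 15 glycolytic enzymes (orange) and 14 other HIF targets (blue) from each gene's mean over the 12 libraries of its line, 1 point per library and bars at group means. In Cal33 the blue points of 4 Gy lie at 0.28 to 0.49, above all of those of sham, and in SAS replicate 3 is the lowest blue point of every group.

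GSK-J1 alone left most of these genes close to sham. In both lines 0 of 36 members were called for GSK-J1 against sham by edgeR's quasi-likelihood test, where 0% of all genes were called, and 0 members by DESeq2. At an unadjusted p under 0.05 there were 0 members in Cal33 and 2 in SAS, beside 215 and 486 of all genes of the same lines. The median log2 fold change of the glycolytic enzymes was -0.01 in Cal33 and 7.8e-04 in SAS, and that of the other HIF targets -0.03 in Cal33 and -0.12 in SAS. NDRG1, a stress gene and strong HIF target, had 181, 204 and 151 CPM in SAS under GSK-J1, against 242, 294 and 188 CPM in sham cells (-0.44, unadjusted p = 0.017, adjusted p = 1). It was lower in each of the 3 pairs. ALDOC (0.57, unadjusted p = 0.023, adjusted p = 1) was the other one in SAS, and its highest value, 1.91 CPM, was in the library with the most Cal33 transcripts. EGLN1 (-0.18), BNIP3L (-0.21) and SLC16A3 (-0.12) followed in SAS. Of the 36 members, 12 were lower and 3 higher in all 3 same-numbered pairs of SAS, with CA9 among the lower ones. The share of all genes was not counted, so these counts are no result about the members. In Cal33, where sham does not pair by number, the groups of 1 member did not overlap, where 3.56% of all genes did not. This was CA9, with 2.70, 2.54 and 2.71 CPM under GSK-J1, against 3.37, 3.56 and 3.85 CPM in sham cells. In Cal33 the smallest p-values belonged to SLC2A3, whose counts were 1, 0 and 0 under GSK-J1 and 0, 2 and 6 in sham cells, ANKRD37 (-0.43), CA9 (-0.44), P4HA2, a collagen prolyl hydroxylase (0.16), and HILPDA, a lipid droplet protein (0.11), all with an adjusted p of 1.

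In Cal33, NDRG1 had 138, 323 and 134 CPM under GSK-J1, against 327, 135 and 135 CPM in sham cells. A single library stood far above the others in each group, replicate 2 under GSK-J1 and replicate 1 in sham, and CA12 was highest in the same 2 libraries (22.0 and 20.5 CPM, against at most 12.5 CPM in the other 4). With the block over the 12 SAS libraries, 0 members were called for GSK-J1 against sham, where 0.0427% of all genes were. With the block in the 6 libraries compared, 1 member rose and 3 fell, where 0.755% of all genes rose and 1.83% fell. VEGFA (0.20, adjusted p = 0.029) rose in that fit, and NDRG1 (-0.42, adjusted p = 6.1e-06), EGLN3 (-0.64, adjusted p = 5.0e-05) and CA9 (-0.69, adjusted p = 0.0036) fell. That fit pools the spread over genes, so its p-values do not measure the spread of the 3 pairs of a gene alone. The CA9 pairs ranged from -0.93 to -0.31. EGLN3 had 7.02, 6.15 and 1.78 CPM under GSK-J1, against 11.9, 9.94 and 2.34 CPM in sham cells, lower in every pair but with replicate 3 far below the other numbers in both groups.

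Adding GSK-J1 to 4 Gy was compared with 4 Gy alone. In both lines 0 of 36 members were called by edgeR's quasi-likelihood test without a block, where 0% of all genes were, and 0 by DESeq2. At an unadjusted p under 0.05 there was 1 member in each line, beside 244 of all genes in Cal33 and 438 in SAS. Most members lay slightly lower with the combination: 30 of 36 in Cal33 and 34 of 36 in SAS. The medians were -0.08 for glycolytic enzymes and -0.11 for other HIF targets in Cal33, and -0.10 and -0.11 for the same classes in SAS, beside 0.02 for all genes of Cal33 and -0.0029 for those of SAS. In Cal33, 20 members were lower in all 3 same-numbered pairs, where 12.7% of all genes were. In SAS, 22 members were, where 19.7% of all genes were. Of these, 14 members were lower in all pairs of both lines, where 2.54% of the 21891 genes tested in both were: ALDOA, ENO1, GPI, LDHA, PGAM1, PGK1, PKM and TPI1 among the glycolytic enzymes, and ADM, BNIP3, CA9, EGLN3, NDRG1 and P4HA1 among the other HIF targets.

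CA9, BNIP3 and NDRG1 show the size of these differences. CA9 had 3.64, 9.58 and 9.91 CPM with GSK-J1 and 4 Gy, against 6.33, 18.1 and 17.2 CPM with 4 Gy alone in Cal33, where the log2 ratios of the 3 pairs were -0.91 to -0.78. In SAS it had 2.02, 0.964 and 0.586 CPM with the combination, against 3.10, 1.44 and 0.887 CPM with 4 Gy. The groups overlapped in both lines, but every pair went the same way.
BNIP3 had 14.7, 18.9 and 30.3 CPM with the combination, against 19.1, 29.0 and 43.0 CPM with 4 Gy in Cal33, and 45.3, 43.7 and 36.6 CPM with the combination, against 57.6, 54.3 and 42.9 CPM with 4 Gy in SAS. NDRG1 had 273.5, 219.6 and 220.2 CPM with the combination, against 324, 293 and 283 CPM with 4 Gy in Cal33. In SAS it had 152, 162 and 141 CPM with the combination, against 230.4, 216 and 171 CPM with 4 Gy, and in both lines the highest combination library lay below the lowest 4 Gy library. Groups without overlap were found for 1 member in Cal33 and 5 in SAS, where 4.53% and 9.83% of all genes had them.

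With the replicate block in the 6 libraries compared, 1 member rose and 6 fell in Cal33, where 0.227% of all genes rose and 0.288% fell. Those that fell were CA9 (-0.85, adjusted p = 8.9e-12), BNIP3 (-0.51, adjusted p = 1.3e-06), NDRG1 (-0.35, adjusted p = 9.7e-05), EGLN3 (-0.60, adjusted p = 1.9e-04), LDHA (-0.27, adjusted p = 0.0064) and PDK1 (-0.35, adjusted p = 0.0088), and SLC16A3 rose (0.28, adjusted p = 0.012). In SAS, 1 member rose and 14 fell, where 4.47% of all genes rose and 3.51% fell. NDRG1 (-0.43, adjusted p = 2.2e-08), BNIP3 (-0.30, adjusted p = 7.7e-06), EGLN3 (-0.50, adjusted p = 5.4e-04), CA9 (-0.61, adjusted p = 0.0031) and SLC2A1 (-0.22, adjusted p = 1.6e-04) fell, as did 7 glycolytic enzymes (GPI, ALDOA, TPI1, PGK1, PGAM1, PKM and LDHA), SLC2A3 and ADM. HIF1A rose (0.16, adjusted p = 0.0046). The fit pools the spread over genes, so these p-values do not measure the spread of the 3 pairs of a gene alone. In SAS the NDRG1 pairs ranged from -0.60 to -0.28, beside an SE of 0.0433 in this fit. These blocked calls rest on the 6 libraries alone. With the block over the 12 libraries of a line, 0 members and 0% of all genes were called in Cal33 and likewise in SAS. In those fits, 232 and 1613 genes of the same lines had an unadjusted p under 0.05. The Cal33 fit includes sham libraries that do not pair by number, so its lack of calls cannot decide the matter there. In SAS the smallest adjusted p of a member was 0.21 for NDRG1.

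**Figure D5:**
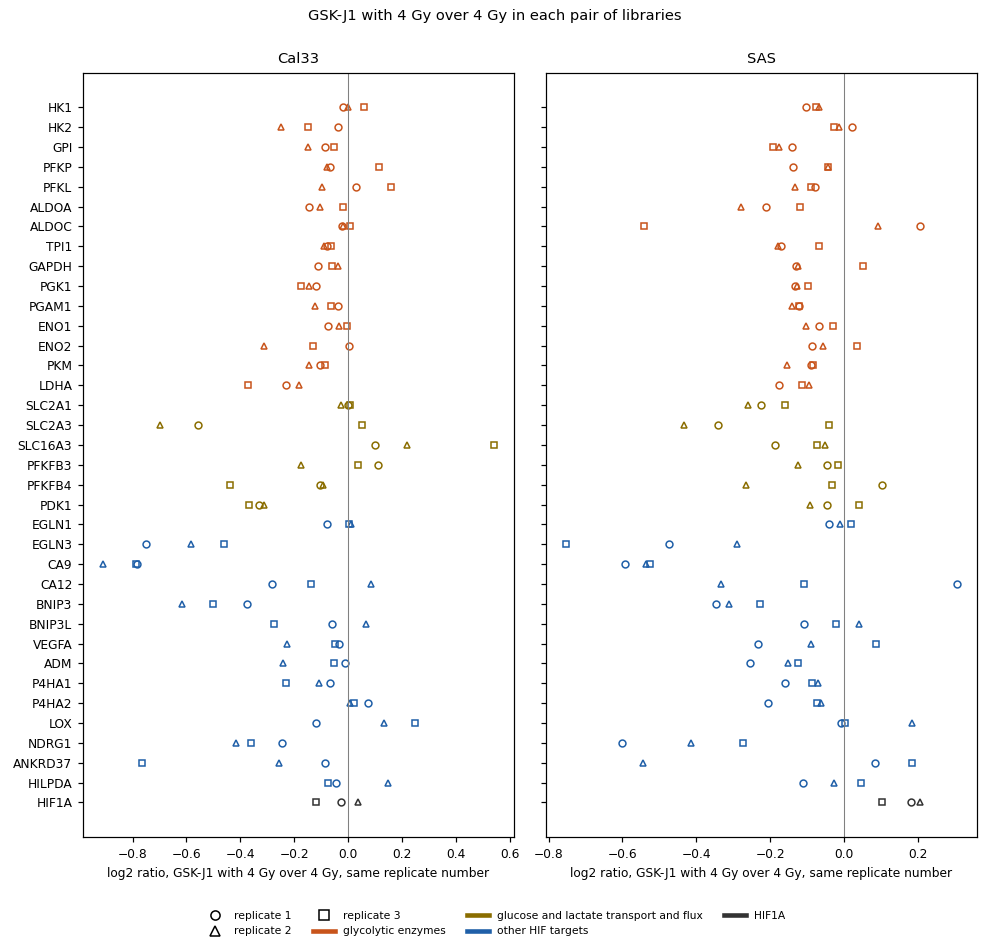
Log2 ratio of GSK-J1 with 4 Gy over 4 Gy in each pair of libraries with the same replicate number (0.1 CPM added to both), Cal33 left and SAS right. CA9, BNIP3, NDRG1 and EGLN3 lie left of 0 in all 3 pairs of both lines, while SLC16A3 in Cal33 and HIF1A in SAS lie right of it.

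For the interaction of GSK-J1 and irradiation, 0 of 36 members and 0% of all genes were called in each line by edgeR's quasi-likelihood test, and 0 members by DESeq2. At an unadjusted p under 0.05 there were 0 members, beside 209 of all genes in Cal33 and 399 in SAS. The smallest unadjusted p was 0.052 for ALDOC in SAS (-0.67) and 0.26 for PDK1 in Cal33 (-0.26). Differences between the lines were not called for GSK-J1 against sham or for the combination against 4 Gy, with 0 of 36 members and 0% of all genes by edgeR and 0 members by DESeq2. At an unadjusted p under 0.05 there were 1 member (ALDOC, -0.56) and 394 of all genes in the first, and 0 members and 383 genes in the second. Both ALDOC values of this paragraph draw on SAS GSK-J1 replicate 1, which holds Cal33 transcripts and the highest ALDOC of its group.

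Other genes of the pathway were counted from lists of HIF machinery, further HIF targets and further glycolysis and pyruvate genes. After 4 Gy in Cal33, where 3.47% of all genes rose and 2.81% fell, 1 of 13 genes of the HIF machinery rose and 0 fell, namely ARNT2, a partner of the alpha subunits (1.05, adjusted p = 0.038). Of 30 further HIF targets, 5 rose and 0 fell: STC2, a secreted glycoprotein (1.14), ANGPTL4, an inhibitor of lipoprotein lipase (1.36), PLOD1, a collagen lysyl hydroxylase (0.41), ERO1L, an oxidase of the endoplasmic reticulum (0.63), and TMEM45A (0.95). Of 23 further glycolysis and pyruvate genes, 0 passed edgeR's test, and at an unadjusted p under 0.05 there were 2 on the higher and 5 on the lower side. PDK2, a pyruvate dehydrogenase kinase (-0.49, adjusted p = 0.058), and MPC2, a subunit of the mitochondrial pyruvate carrier (-0.41, adjusted p = 0.074), had the smallest p-values.

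After 4 Gy in SAS, 3.63% of all genes rose and 3.45% fell. Among the further HIF targets, ANGPTL4 (2.80) and GBE1, the glycogen branching enzyme (0.34), rose, while DDIT4, an inhibitor of mTORC1 (-1.46), and RAB20 (-0.91) fell. DDIT4 averaged 125 CPM after 4 Gy and 342 CPM in sham cells of SAS. Of 13 genes of the HIF machinery, TCEB1, the elongin C of the VHL complex, rose (0.31, adjusted p = 0.046), and of 22 further glycolysis and pyruvate genes, C12orf5, the p53 target TIGAR that lowers fructose 2,6-bisphosphate, rose (0.82, adjusted p = 0.0031). C12orf5 had 0.77 in Cal33 (adjusted p = 0.14).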

How the data were processed

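The authors deposited, for each of 24 libraries, raw counts of read pairs per gene made with the ODCF RNA-seq workflow, for which the submitters' processing notes name the aligner STAR (2.5.3a), the counter featureCounts (Subread, 1.5.1) and SAMtools (1.6), with hs37d5 as the genome, from a stranded total RNA kit. The deposited counts on the gene strand (94.43 to 95.18% of stranded counts) and the exonic length (other unit, in bases) were used. Depth was 54200036 to 96848227 counts per library, and intervals cover counting error and the spread of 3 replicates only.

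Each line was fitted on its 12 libraries with edgeR 4.0.16 in R 4.3.3 (TMM, quasi-likelihood test on group means), keeping genes that averaged 1 or more counts, and a call required an adjusted p (Benjamini-Hochberg, all genes tested) under 0.05. The study used DESeq2, which was run here as an alternative (1.42.0). Standard errors were obtained from the fold change and its F statistic, as log2 fold change over root F. The test was checked on simulated counts. Same-numbered replicates were taken to pair where every correlation of deviations from the group means exceeded 0.1 (lowest r across genes 0.249 in SAS, 0.175 in Cal33 without sham and -0.522 with it). Alternatives were other scaling, filters, thresholds, strand use, blocks, the 6 libraries compared alone, and leaving out libraries. The members and gene lists were chosen with earlier results of these data known. Named genes are all members by level, the called members of a comparison or, with fewer than 5 calls, also the 5 with the smallest p, and a preset group of HIF and glycolysis genes by library. Reads of pseudogenes came to at most 1.03% of a member's counts (LDHA). Genes named from blocked fits and the pathway's other genes follow their calls in those fits. CPM per kb divides by exonic length. Promoters come from RefSeq (GRCh38.p14). An item of the further HIF targets is not reported here.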

Additional observations from a re-analysis of the deposited data

Results flagged for a closer look

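In all, 4 differences between the lines in the response to irradiation passed the test of the difference itself. For 4 Gy against sham, HK2 rose by 1.39 on the log2 scale in Cal33 and had 0.17 in SAS, a difference of 1.21 (adjusted p = 0.012). ALDOC fell by 0.77 in Cal33 and had 0.57 in SAS, a difference of -1.36 (adjusted p = 0.017). ALDOC is a low transcript in SAS, with 0.907 to 1.69 CPM in the 6 libraries compared, against 41.4 to 82.3 CPM in Cal33. For GSK-J1 with 4 Gy against GSK-J1, HK2 rose by 1.33 in Cal33 and had 0.11 in SAS, a difference of 1.20 (adjusted p = 0.012), and ADM rose by 0.74 in Cal33 and had -0.35 in SAS, a difference of 1.06 (adjusted p = 0.049). The GSK-J1 and combination groups of SAS each include a library with Cal33 transcripts. The Cal33 groups of HK2 and ADM did not overlap in either comparison.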

How the results depend on the processing

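In SAS, the 2 members called for 4 Gy against sham became 6 at an adjusted p under 0.1, 7 with DESeq2, 4 with DESeq2 size factors in edgeR, 4 with a mean of at least 10 counts and 5 without a filter. Pairing the SAS replicates by a block gave 15 over 12 libraries, 12 in the 6 compared, and 16 when the 2 SAS libraries with Cal33 transcripts were dropped (a fit chosen after seeing the data). For GSK-J1 with 4 Gy against GSK-J1 in SAS, 2 became 1 with only the 6 libraries compared, 1 with counts without regard to strand and 0 without those 2 libraries. The block gave 8 over 12 libraries, 11 in the 6 compared and 5 in the fit chosen after seeing the data. The block in the 6 libraries compared gave 4 for GSK-J1 against sham and 15 for GSK-J1 with 4 Gy against 4 Gy in SAS, and 7 for GSK-J1 with 4 Gy against 4 Gy and 15 for GSK-J1 with 4 Gy against GSK-J1 in Cal33. In Cal33, the 8 members called for 4 Gy against sham became 5 with only the 6 libraries compared, and the median of the other HIF targets for GSK-J1 with 4 Gy against GSK-J1 was 0.33 with counts without regard to strand.

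Leaving out 1 library at a time gave 1 to 2 members for SAS 4 Gy against sham, 0 to 1 for SAS GSK-J1 with 4 Gy against GSK-J1, 5 to 8 for Cal33 4 Gy against sham and 3 to 6 for Cal33 GSK-J1 with 4 Gy against GSK-J1. In Cal33 the median of the other HIF targets was then 0.59 to 1.05 for 4 Gy against sham and 0.37 to 0.81 for GSK-J1 with 4 Gy against GSK-J1, and the glycolytic minus HIF target difference -0.87 to -0.33 and -0.73 to -0.17. Between the lines, the 2 members called for 4 Gy against sham became 5 with DESeq2, 5 without a filter and 6 with the replicate block. The 2 called for GSK-J1 with 4 Gy against GSK-J1 became 1 with DESeq2 size factors in edgeR, 4 without a filter and 5 with the block. The cause of these shifts was not tested.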
